A study of Mus musculus with 2 samples.

Results

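The elastic fibre and microfibril genes are Eln, Fbn1, Fbn2, Fbln1, Fbln2, Fbln5, Efemp1, Efemp2, Mfap4 and Mfap5, 10 genes taken by name for elastin, fibrillins, fibulins and microfibril proteins. Of these, 8 had a probe set in the platform annotation, among 21335 genes in all. For Fbn1 and Efemp2 no probe set is listed in the annotation used here, and both were not analysed here. Each of the 8 measured genes had 1 probe set, and none of these probe sets names a further gene. The cells were the PDGFRα+ part of the stromal vascular fraction of inguinal white fat, which holds the cells other than adipocytes that collagenase sets free. Each of 2 groups of female mice aged 6 weeks, Sox9 floxed and Sox9 PreASKO, gave 1 array of RNA pooled from 3 animals. Mice of both groups received doxycycline at postnatal day 1, so the drug itself does not separate them. Nothing in the labels names the promoter that drives recombination in PreASKO mice or the cells it reaches. With 1 array per group no difference has an error, a replicate check or a p-value.

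Elastic fibres give tissues recoil. Their core is elastin, secreted as soluble tropoelastin and cross-linked by lysyl oxidases, and it is laid down on a scaffold of microfibrils built from fibrillins. Fibulins and microfibril-associated proteins connect the core, the scaffold, cell-surface integrins and the cross-linking enzymes, and microfibrils also hold latent TGF-beta and BMPs in the matrix. In fat, these proteins belong to the stromal matrix that surrounds adipocytes and vessels and forms the connective tissue septa, and fibroblast-like PDGFRα+ cells are a source of them.

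All values are the deposited log2 values, and all differences are PreASKO minus floxed on that scale, where 0.585 is the 1.5-fold change named in the series' design text. Sox9, the targeted gene, was at 5.25 on the floxed array and 4.97 on the PreASKO array, a difference of -0.27 that does not reach 1.5-fold. The position of its probes relative to the deleted part was not examined here. Pdgfra, whose product was used for the sort, had values of 9.86 and 9.55 and thus differed by -0.31. The labelled cell type was checked on 11 measured stromal and adipose precursor markers, Pdgfra and the collagen gene Col3a1 among them, and all 11 lay above background on both arrays. All 18 macrophage markers did so too, so the pools also held macrophage transcripts. The background mark was 4.90, the 95th percentile on the brighter array of 1116 olfactory receptor genes, a family presumed not to be expressed in stromal cells of fat. Both Sox9 values lay above this mark but below the 99th percentile of these receptor genes, 5.93 on floxed and 5.40 on PreASKO. The Sox9 difference therefore rests on values near background. The level floor was 5.21, the median over all genes of each gene's higher array.

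None of the 8 measured elastic fibre and microfibril genes differed by 1.5-fold in either direction. Over all genes 4.04% passed that limit, 1.57% higher and 2.47% lower in PreASKO, so a count of 0 among 8 genes is near the background. Above the level floor, where all 8 genes lay, the share was 3.37%, with 1.57% higher and 1.79% lower. The values of Fbln5, Fbn2, Mfap4, Eln, Efemp1 and Fbln1 were lower in PreASKO and those of Fbln2 and Mfap5 were higher, 6 against 2. The differences ran from -0.33 (Fbln5) to 0.13 (Fbln2), with a median of -0.09 against a median of 0 over all genes. Of all genes, 49.1% had a lower value in PreASKO, and of those above the level floor 45.2% did. All 8 lay above the 99th percentile of those receptor genes on both arrays (5.93 on floxed and 5.40 on PreASKO), so none of their differences rests on a value at background.

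**Figure D1:**
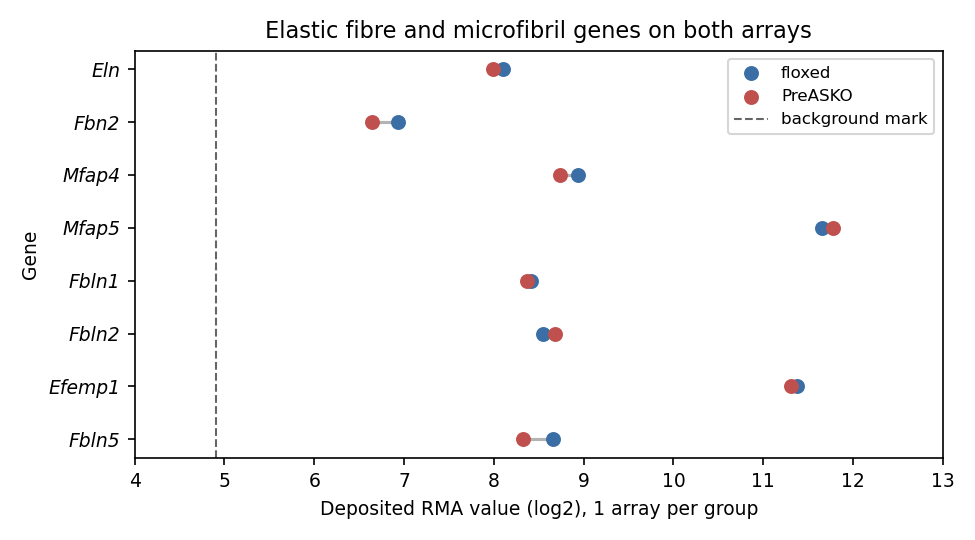
Deposited log2 value of each of the 8 measured genes on the floxed array (blue) and the PreASKO array (red), with 1 array per group and therefore no error bars; the dashed line is the background mark of 4.90. Every pair lies to the right of that line, the widest gap is that of Fbln5 (8.66 and 8.33), and PreASKO lies to the right of floxed only for Mfap5 and Fbln2.

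The core protein and the fibrillin scaffold were measured through Eln and Fbn2. Eln, which encodes tropoelastin, was at 8.10 on the floxed array and 7.99 on the PreASKO array. This difference of -0.11 equals 1.08-fold, and 25.8% of all genes above the level floor were lower by at least as much. Of 1571 genes whose mean level lay within 0.5 of that of Eln, 23.6% were. Fbn2, the fibrillin best known from developing tissues, was at 6.93 and 6.65. Its difference of -0.28 equals 1.22-fold and was the second most negative of the 8. Of 2964 genes whose mean level lay within 0.5 of that of Fbn2, 7.22% were at least as much lower. Of all genes above the level floor 9.17% were.

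The microfibril-associated proteins differed in sign. Mfap5 encodes MAGP-2, a small glycoprotein that binds fibrillins. It was at 11.66 on floxed and 11.78 on PreASKO, a difference of 0.12 or 1.09-fold in the direction of PreASKO. Of 160 genes of similar mean level 18.8% were higher by at least as much, and of all genes above the level floor 31.1%. Mfap2, which encodes the related MAGP-1 and stands outside the list of 10, was at 10.15 and 9.94, a difference of -0.20. The differences of this pair of relatives lay 0.33 apart. Mfap4, a fibrinogen-related protein that binds elastin and fibrillin microfibrils, was at 8.94 and 8.74. Its difference of -0.20 equals 1.15-fold. Of 838 genes of similar mean level 9.19% were lower by at least as much, and of all genes above the level floor 15.9%.

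The fibulins held both ends of the range. Fbln5 encodes a short fibulin that binds tropoelastin, integrins and lysyl oxidase-like 1 and is needed for elastic fibre assembly. It was at 8.66 on floxed and 8.33 on PreASKO, a difference of -0.33 or 1.26-fold. This was the most negative value of the 8 genes, and 2.24% of 1115 genes of similar mean level, or 6.77% of all genes above the level floor, were lower by at least as much. Efemp1, which encodes fibulin-3, the other short fibulin measured, was at 11.38 and 11.31, a difference of -0.07. Of 178 genes of similar mean level 15.7% were lower by at least as much, and of all genes above the level floor 33.2%. Fbln1 encodes a fibulin of basement membranes and elastic fibres. It was at 8.41 and 8.37, with a difference of -0.04 that was the nearest to 0 of the 8. Of 1215 genes of similar mean level 36.7% were lower by at least as much, and of all genes above the level floor 38.2%. Fbln2, whose product binds fibrillin and other matrix proteins, was at 8.55 and 8.68, and its difference of 0.13 or 1.10-fold was the most positive. Of all genes above the level floor, 29.9% were higher by at least as much as Fbln2, and of 1007 genes of similar mean level 26.6%.

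Upstream sequences were read for the fibulins, since the study deletes a transcription factor and only fibulins among the 8 genes had an entry in the RefSeq promoter table of build GRCm38.p6. There, Fbln1 and Fbln5 had 2 annotated starts each and Fbln2 and Efemp1 had 1, which gave 6 windows of 250 bases before a start. The 2 windows of Fbln1 overlap over most of their length, so the 6 are not separate sequences. Shown are the windows of the fibulin with the most negative difference and of the one nearest to 0, chr12:101819120-101819369 on the minus strand for Fbln5 and chr15:85205699-85205948 on the plus strand for Fbln1. Both end just before the first base of the annotated gene and are written 5′ to 3′ in the gene's direction. Capitals mark the words listed in the next paragraph.
Fbln5: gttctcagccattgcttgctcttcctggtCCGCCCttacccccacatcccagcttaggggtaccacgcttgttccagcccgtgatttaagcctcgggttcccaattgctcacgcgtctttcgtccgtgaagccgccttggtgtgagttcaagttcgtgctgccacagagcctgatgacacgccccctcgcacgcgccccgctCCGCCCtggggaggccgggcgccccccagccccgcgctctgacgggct
Fbln1: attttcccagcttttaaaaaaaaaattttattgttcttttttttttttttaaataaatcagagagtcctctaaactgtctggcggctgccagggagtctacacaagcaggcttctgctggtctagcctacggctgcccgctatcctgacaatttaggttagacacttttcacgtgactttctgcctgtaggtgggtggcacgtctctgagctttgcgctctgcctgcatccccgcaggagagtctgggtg

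Neither window, nor any of the other 4, holds the SOX core words ACAAAG or ACAATG on either strand, which occur in 25.2% of 32851 windows of the same length. The TATA word TATAAA, searched on both strands, was found in none of the 6 and in 12.4% of all windows. The GC box word GGGCGG was found on either strand in 4 of the 6 and in 32.7% of all windows. In the printed Fbln5 window it occurs on the opposite strand, as CCGCCC, with its first base 221 and 48 bases before the start. The AP-1 word TGANTCA, where N is any base, was found once, as TGAATCA in the window of Efemp1, and in 6.75% of all windows. The searched words do not overlap in the 6 windows. GC content was 65.2% in the printed Fbln5 window and 46.4% in the printed Fbln1 window, against a median of 52.4% over all windows. The windows of the other annotated starts had the reverse order. The other Fbln5 window had 49.6% GC and no GC box word, and the other Fbln1 window had 62.4% GC and 1 GC box word. These are matches of letters in short windows, and no binding was measured.

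A gauge of scale that is independent of the choice of genes comes from probe sets of one gene, which should give the same difference on the same arrays unless they read different transcripts or noise. Of 449 genes with exactly 2 single-gene probe sets above the level floor, the differences of the 2 probe sets lay a median of 0.13 apart, with a 90th percentile of 0.44. In 32.1% of these genes the 2 probe sets had opposite signs. The differences of Eln, Fbln1, Fbln2, Efemp1 and Mfap5 are no larger than about that median gap, and those of Mfap4, Fbn2 and Fbln5 are larger than the median gap but below its 90th percentile. This gap was taken over all levels above the floor and was not matched to the levels of these genes. It holds no variation between animals.

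**Figure D2:**
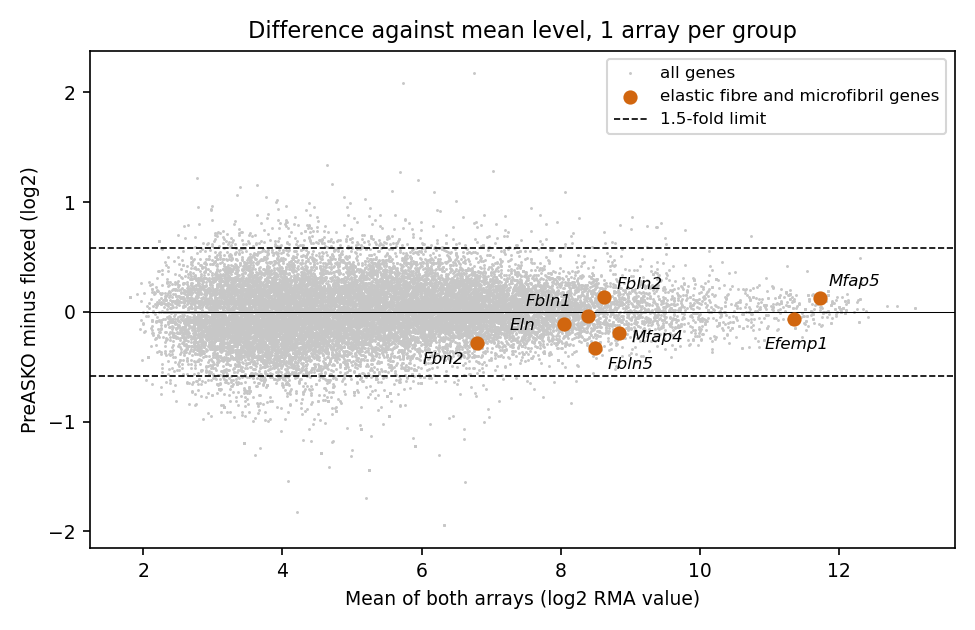
Difference PreASKO minus floxed (log2) against the mean of both arrays (log2) for all 21335 genes in grey and for the 8 measured elastic fibre and microfibril genes in orange; dashed lines mark 1.5-fold. All 8 orange points lie between the dashed lines, and Fbln5 (-0.33) lies at the lower edge of the genes of its level.

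The other genes of elastic fibre assembly and turnover were described with 7 lists of 87 genes, of which 86 had a probe set. Of the 86, 43 were lower and 43 higher, and 1 gene passed 1.5-fold in each direction against 2.47% (lower) and 1.57% (higher) of all genes. The lower one was Adamts6 (3.44 and 2.85) and the higher one Gdf5 (3.63 and 4.46). Both were below the background mark on both arrays, so neither fold is measured. Their names were chosen after their values were seen. Above the level floor none of 65 genes passed the limit.

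Among other structural proteins, the median difference of 14 genes was -0.04, and that of the 10 above the level floor was -0.15. The fibulin relatives Hmcn1, hemicentin-1, and Hmcn2, hemicentin-2, differed by -0.50 and -0.32. The basement membrane proteoglycan gene Hspg2, perlecan, differed by 0.14 and the glycoprotein gene Emilin2 by 0.06. LTBPs, which tether latent TGF-beta to microfibrils, and the ADAMTS and ADAMTSL proteins had a median of 0.03 over 15 genes. The protease gene Adamts17 was at 6.84 and 6.35, a difference of -0.49, and its 5 probe sets all gave lower values in PreASKO. Papln differed by -0.48, Adamtsl5 by 0.29 and Adamts19 by 0.13.

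The enzymes that cross-link elastin did not share a sign. Lox, lysyl oxidase itself, was at 8.93 and 8.64, a difference of -0.29. Loxl1, the relative that acts with Fbln5, was at 10.03 and 10.11, a difference of 0.08, where Fbln5 differed by -0.33. Loxl2 differed by -0.26, on a probe set that names a second gene as well, Loxl3 by -0.03 and Loxl4 by -0.27 on the brighter of its probe sets and 0.18 on the other. Atox1, a copper chaperone gene, differed by 0.23, and the copper importer gene Slc31a1 by 0.14. The median over the 8 genes of this list was -0.04.

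Growth factors held on microfibrils and their receptors had a median of -0.02 over 12 genes. Tgfb1 was at 6.37 and 6.82, a difference of 0.46, and the TGF-beta receptor genes Tgfbr2 and Tgfbr1 differed by 0.17 and -0.25. Bmp4 differed by -0.30. Integrins and other receptors of elastic fibre proteins had a median of -0.07 over 13 genes. The integrin gene Itga8 differed by -0.37 and Itgb5, a partner of the αv integrin chain, by -0.12, while Ctsa, the protective protein of the lysosomal complex that also holds the elastin-binding protein, differed by 0.29 and Lgals3 by 0.27.

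Elastin-degrading and related proteases had a median of -0.01 over 14 genes, while the 9 above the level floor had one of 0.11. Ctss, a cathepsin with elastase activity, was at 8.08 and 8.59, a difference of 0.51, and the gelatinase gene Mmp9 was at 5.94 and 6.38, a difference of 0.44. Htra1 and Mmp14 differed by -0.27 and -0.25. Mmp12 (macrophage elastase) and Elane (neutrophil elastase) were below background on both arrays. Protease inhibitors and related serpins had a median of 0.15 over 10 genes, Serpina1a among them on a probe set that names 5 genes. That median was 0.17 with single-gene probe sets and 0.011 with values raised to background. Timp3 and Serpinb1a both differed by 0.35, Timp2 by -0.07 and Timp4 by -0.16. Ctss is made by macrophages among other cells. Of 18 macrophage markers 17 were higher in PreASKO, 5 of them by 1.5-fold, against 47.3% and 1.57% of all genes. Their median was 0.44, and the fractalkine receptor gene Cx3cr1 was 1.5-fold lower (6.40 and 5.80). The summed linear value of the 18 markers was 11986 on floxed and 15679.8 on PreASKO. The probe set taken for Itgam also names a ribosomal protein gene, and over the other 17 markers the sums were 8643 and 12231. The part of these cells in the values of the proteases was not tested.

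**Figure D3:**
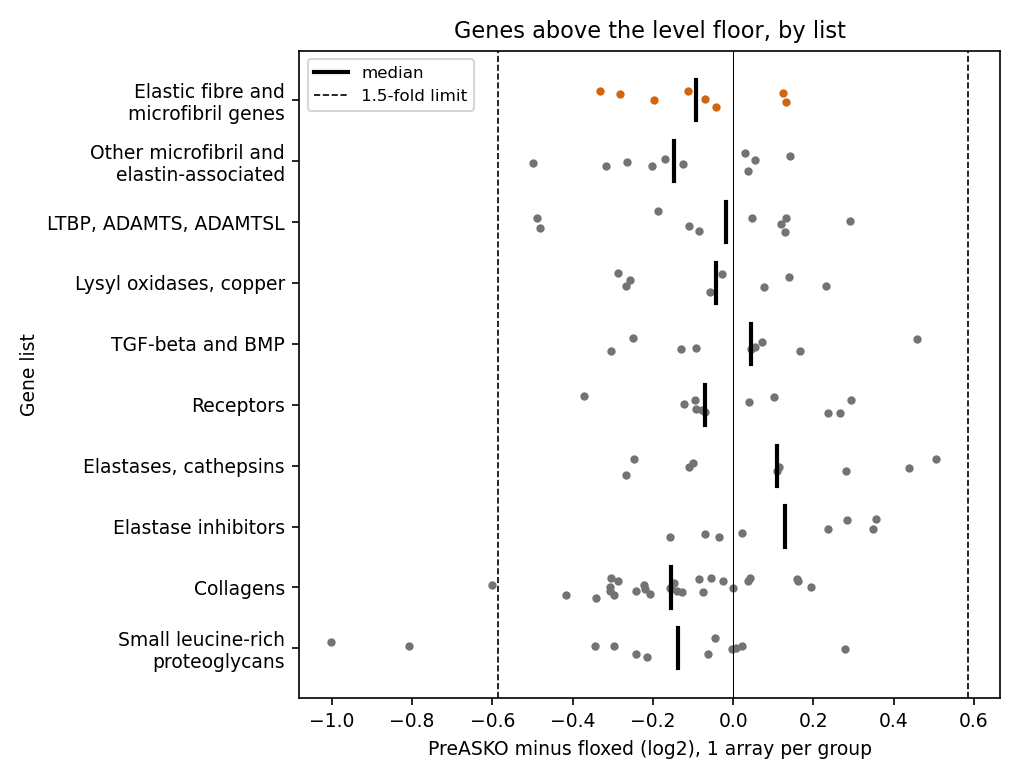
Difference PreASKO minus floxed (log2) of every gene above the level floor in the list of elastic fibre and microfibril genes (orange) and in 9 related lists (grey), 1 point per gene with vertical scatter for legibility; black bars are medians and dashed lines mark 1.5-fold. The orange points lie between -0.33 and 0.13, and points beyond 1.5-fold occur only among collagens (Col12a1) and small leucine-rich proteoglycans (Kera and Fmod).

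Hmcn1 is the one fibulin family gene here with many probe sets, 77 of them. In PreASKO 66 were lower, 10 higher and 1 equal, with a median difference of -0.34. Above the level floor 65 of 71 were lower, and 13 of the 77 were 1.5-fold lower while none was 1.5-fold higher. Of all 21789 single-gene probe sets 2.03% were 1.5-fold lower, and of those above the level floor 44.0% were lower. The other 5 genes with at least 20 probe sets were Dnah3, Chd7, Ccdc180, Spef2 and Myo18b. Between 33.3% and 63.6% of their probe sets were lower, with medians from -0.10 to 0.08. No level floor was applied to them, and their levels were not set beside those of Hmcn1. The Hmcn1 probe sets ran from -0.87 to 0.53. They read 1 transcript locus in the same pair of RNA pools and are not replicates of the comparison. Of the 7 fibulin family genes with a probe set (Fbln1, Fbln2, Efemp1, Fbln5, Fbln7, Hmcn1 and Hmcn2), 6 had a lower value in PreASKO and Fbln2 a higher one. Of all genes above the level floor, where all 7 lay, 45.2% were lower. Fbln1, Fbln2, Efemp1 and Fbln5 are also counted among the 8 measured genes. The differences of Fbln1 and Efemp1 were only -0.04 and -0.07. Fbln7 differed by -0.17.

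**Figure D4:**
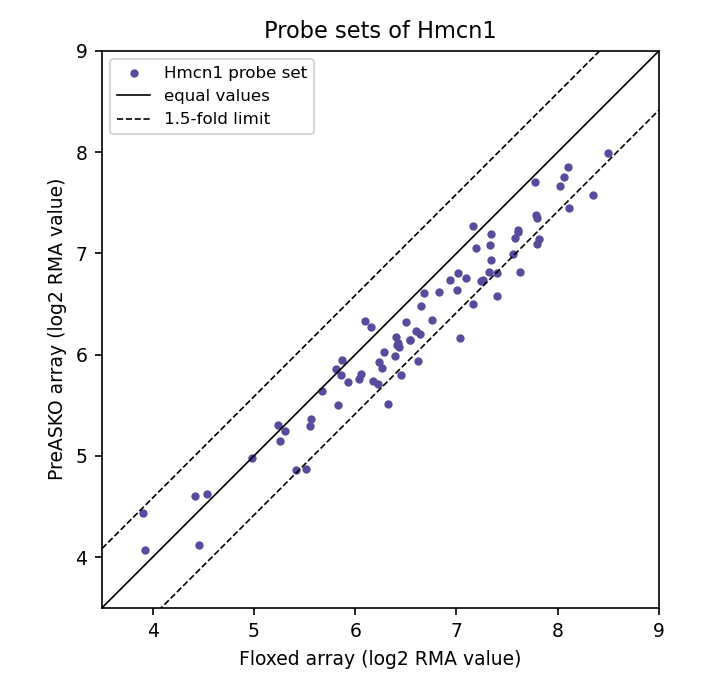
Deposited log2 value on the floxed array (horizontal) and on the PreASKO array (vertical) of each of the 77 Hmcn1 probe sets; the solid line marks equal values and the dashed lines 1.5-fold. Of the points, 66 lie below the solid line and 13 lie below the lower dashed line.

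Collagens and small leucine-rich proteoglycans, the other main stromal matrix genes, were set beside the elastic fibre genes. Of 44 collagen genes 31 were lower and 11 higher, with a median of -0.14, and 1 was 1.5-fold lower and none higher. Col12a1, a collagen associated with fibril surfaces, was at 7.66 and 7.06, a difference of -0.60. Col4a5 differed by -0.42, Col5a3 by 0.19 and Col4a1 by 0.16. Of 16 proteoglycan genes 13 were lower, 2 by 1.5-fold, with a median of -0.16. Of all genes 49.1% were lower and 2.47% were 1.5-fold lower. Kera (keratocan) was at 7.39 and 6.39, a difference of -1.001, and Fmod (fibromodulin) differed by -0.81, while Prelp differed by 0.28 and Ogn by 0.02. The median of the elastic fibre genes was -0.09. With values raised to background the medians were -0.078 for collagens, -0.053 for proteoglycans and -0.09 for the elastic fibre genes. The order of the 3 groups thus turned with that choice. That setting gives genes below background on both arrays a difference of 0. These were 9 collagens, 3 proteoglycans and 0 of the elastic fibre genes. Above the level floor the medians were -0.16, -0.14 and -0.09, with the elastic fibre genes again the least negative. With 1 array per group no difference between the groups was tested.

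Elastin, Mfap4 and Fbln5 are also products of vascular smooth muscle, so mural markers are given beside them. Of 13 mural markers 8 were lower and 5 higher in PreASKO, with a median of -0.20, and the summed linear value was 655 on floxed and 573 on PreASKO. Of the 7 above the level floor 5 were lower and 2 higher. The lower ones were the smooth muscle actin gene Acta2 (7.21 and 6.77), Kcnj8 (5.98 and 5.36), Abcc9 (-0.41), Mcam (-0.31) and Tagln (-0.13). The higher ones were the pericyte and smooth muscle receptor gene Notch3 (5.31 and 5.77) and Ndufa4l2 (0.24). Of these only Kcnj8 passed 1.5-fold. Of all genes above the level floor 45.2% were lower and 1.79% were 1.5-fold lower. Of the defining markers, Myh11, Des and Cnn1 were below background on both arrays. Their differences were 0.40, -0.43 and 0.63, so Cnn1 passed 1.5-fold higher on values that are not above background. Of 11 stromal and adipose precursor markers 8 were lower and 3 higher, with a median of -0.06 and summed linear values of 18710 and 18653. Of 10 interstitial progenitor markers, among them Dpp4 and Pi16, 6 were lower and 4 higher, with a median of -0.04. All markers of these 2 lists lay above the level floor, where 45.2% of all genes were lower. In such a sorted pool fewer cells of a type and less RNA per cell cannot be told apart. Markers of endothelial, lymphocyte, epithelial, mesothelial and mature adipocyte cells had medians between -0.10 (endothelial) and 0.25 (epithelial), and most members of each list except the endothelial one were below background on both arrays, as were 6 of 12 endothelial markers. Cell cycle genes had a median of -0.76 over 21 genes, 13 of them 1.5-fold lower, against 2.47% of all genes. The part of mural or stromal cell numbers in the lower values of Fbln5, Mfap4 and Eln was not tested.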

How the data were processed

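RMA is named in the submitters' processing notes as the authors' method for the 2 biotin-labelled arrays, whose deposited log2 values cover 35556 probe sets. The log2 scale is inferred from the deposited values, which run from 1.23 to 13.8, and the RMA version is not given in the sources used here. RMA makes array distributions alike and understates differences of dim genes. The array medians were 4.73 (floxed) and 4.71 (PreASKO).

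Gene names came from the platform annotation (of all probe sets 21789 name 1 gene, 1621 several, and 12146 are not listed there). The probe set with the highest mean represented each gene, probe sets with several genes included. Groups had 1 array each, so differences were described by the 1.5-fold limit and no test was made. The number of arrays limits the precision. Members and lists were chosen with earlier results of these data known. Named genes are the members and, per list, up to 2 most positive and 2 most negative above the level floor; Mfap2, Loxl1, Loxl2, Loxl3, Fbln7, Acta2, Mmp12, Elane and the marker genes were named for their roles. Summed linear values add 2 to the power of each log2 value. The steps were tested on simulated data. Python 3.11.15, pandas 2.3.3, numpy 2.4.6, statsmodels 0.14.6 and matplotlib 3.10.9 were used.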

Additional observations from a re-analysis of the deposited data

How the results depend on the processing

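Under 7 alternatives (mean over probe sets, single-gene probe sets, every probe set, values raised to background, centring, loess with span 0.3, quantile normalization) no difference of the 8 elastic fibre genes changed sign, passed 1.5-fold or moved by more than 0.06, and their median ran from -0.13 to -0.09. Only loess and quantile normalization could move these differences. The other settings left them unchanged, since each gene has 1 single-gene probe set above background and centring shifted nothing. The gene counts depended on the fold limit and the treatment of dim values. Of all 21335 genes 335 were higher and 527 lower. These became 20 and 77 at 2-fold, 168 and 191 of 10668 genes above the level floor, and 143 and 160 with values raised to background. Over every probe set 1608 were higher and 1982 lower. That count is of all 35556 probe sets, 12146 of them without a listed gene, and is not a count of genes. Among the other elastic fibre assembly genes the 1 higher gene became 0 at 2-fold, above the level floor and with values raised to background. The 1 lower gene became 0 under these, under loess and under quantile normalization, and 15 over every probe set, 13 of them of Hmcn1. For collagens, 1 was higher over every probe set, and the 1 lower became 0 at 2-fold. The 2 lower proteoglycans became 1 at 2-fold. For other structural proteins the median moved to -0.29 (every probe set) and -0.15 (above the level floor). For LTBPs and ADAMTS proteins it moved to -0.089 (every probe set) and for proteases to 0.11 (above the floor). With values raised to background it moved to 0.011 for inhibitors and related serpins and to -0.053 for proteoglycans. The cause was not tested beyond each setting's construction. No paired analysis was possible because there is a single array in each group, and for the same reason none could be left out.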
